A study of Mus musculus with 8 samples.

Results

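The interferon regulatory factors examined here were 8 genes, Irf1, Irf2, Irf3, Irf4, Irf5, Irf7, Irf8 and Irf9, chosen by their symbols among the 54146 genes measured by RNA-seq in primary mouse astrocytes. Mixed glia from the cortices of C57BL/6 mice of postnatal days 2 to 5 were infected with lentivirus that carried an shRNA against Gstm1, which encodes a glutathione S-transferase (GSTM1 KD), or a non-silencing shRNA (control KD), and all groups were selected with puromycin and depleted of CD11b-positive microglia. Both kinds of astrocytes were left without stimulation (the basal level) or given TNF-α (50 ng/ml) over 6 h, with 2 libraries in each of the 4 groups and 8 in all. The study's text calls the replicates biological, the labels do not say what separates them, and the p-values measure the spread between these libraries. The question addressed was whether expression of these transcription factors and of the genes around them depended on GSTM1 in resting and in TNF-α-stimulated astrocytes.

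Interferon regulatory factors share an N-terminal DNA-binding domain with a conserved set of tryptophans, which reads GAAA repeats in the interferon-stimulated response element. IRF3 and IRF7 are held inactive in the cytoplasm until the kinases TBK1 and IKKε phosphorylate them downstream of nucleic acid sensors, and then drive transcription of type I interferon genes. IRF9 is the DNA-binding subunit of ISGF3, the complex through which type I interferons act, and Irf7 and Irf9 are themselves interferon-inducible genes. IRF1 is an activator whose gene is transcribed in response to NF-κB and to interferons, while IRF2 binds the same elements and often counteracts it. IRF5 acts downstream of MyD88, and IRF4 and IRF8 are best known in lymphocytes and in the myeloid lineage that includes microglia.

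Library totals of expected counts lay between 17349682 and 34434615, and Gstm1 itself was at 209 to 390 CPM (the count scaled to a fixed library size) in the 4 control KD libraries and at 23.3 to 31.3 CPM in the 4 GSTM1 KD libraries. A count of 3, taken as the floor of detection, corresponded to 0.0871 to 0.173 CPM. The 9 astrocyte markers were all detected in every library, with a summed TPM (a level scaled by transcript length and by library) of 1580 to 5720, and replicate 1 of control KD was the lowest library in both states at 1580. Their sum was 1580 and 3790 TPM in resting control KD, against 3650 and 5720 TPM in resting GSTM1 KD, and 1580 and 3640 against 3500 and 5420 TPM with stimulation, so the groups overlapped. Of 15 microglia and macrophage markers, 0 to 4 had no count in a library, and their summed TPM was 4.28 to 24.5, with replicate 1 of control KD again apart at 24.2 and 24.5. Among these markers P2ry12 and Aif1 had 0 to 2 and 0 to 4 counts. Others were higher, such as C1qa at 2.94 ± 2.38 TPM (SD, n = 2) and Ctss at 2.48 ± 2.48 TPM in resting control KD. The 6 lymphocyte markers summed to 0.110 to 0.350 TPM, with 4 or 5 of them at 0. With the knockdown 6 of the 9 astrocyte markers had a positive log2 fold change at rest and 5 with stimulation (medians 0.36 and 0.07). At rest 3 were negative, and the positive ones included Aldoc at 1.11, Gfap at 1.10 and Aldh1l1 at 1.05, each with groups that did not overlap. S100b was scarcer, at means of 11.4 TPM in resting control KD and 4.38 TPM in resting GSTM1 KD. In each state 1 of the 9 passed the test, S100b, which was lower at -1.44 and -1.71. Over all genes tested 4.60% were called higher and 5.62% lower at rest, and 7.26% and 8.92% with stimulation, against which this and the next counts of markers stand. Also lower were the oligodendrocyte lineage marker Olig2 (-0.85 and -1.14) and the fibroblast marker Col1a2 (-1.13 and -0.99). Olig1, also of the oligodendrocyte lineage, was lower after TNF-α, at -0.44. The 9 oligodendrocyte lineage markers summed to 423 to 596 TPM at rest and 340 to 479 TPM with stimulation, with both GSTM1 KD libraries the lower ones in each state and 1 to 3 markers at 0 counts. The 5 fibroblast markers summed to 50.7 to 140 TPM with none at 0. The 5 endothelial markers summed to 1.72 to 3.21 TPM with 1 at 0, and the 5 neuron markers to 182 to 237 TPM with 0 or 1 at 0. Nearly all of the neuron sum was Map2 and Tubb3, at means of 115 and 79.4 TPM in resting control KD. There Syt1 was at 0.270, Rbfox3 at 0.0750 and Snap25 at 0.0150 TPM. No endothelial or neuron marker tested passed in either state (edgeR; 2 endothelial markers in each state, and 0 and 1 neuron markers, at an unadjusted p under 0.05). The part of these markers' cells in the differences between the knockdowns was not tested. In bulk RNA, fewer cells of a type and less RNA per cell cannot be told apart.

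All 8 genes had an entry in the RefSeq promoter table of GRCm38.p6, with 11 windows of 250 bases before and 50 bases after a transcription start, read on the strand of the gene. Both strands were searched for the interferon-γ-activated site TTCNNNGAA (GAS), for the core AANNGAAA that these factors bind, and for the κB consensus, and matches were allowed to overlap. The sequences are shown because Irf1 was the most abundant member after TNF-α, Irf2 held all 3 motifs, and Irf7 and Irf9 moved most nearly together across the libraries. Capitals mark motif matches, and positions count back from the base before the start and give the 5′ end of the match. The Irf1 window, chr11:53769764-53770063 on the + strand, held a GAS at -90 and a κB match at -13.
Irf1: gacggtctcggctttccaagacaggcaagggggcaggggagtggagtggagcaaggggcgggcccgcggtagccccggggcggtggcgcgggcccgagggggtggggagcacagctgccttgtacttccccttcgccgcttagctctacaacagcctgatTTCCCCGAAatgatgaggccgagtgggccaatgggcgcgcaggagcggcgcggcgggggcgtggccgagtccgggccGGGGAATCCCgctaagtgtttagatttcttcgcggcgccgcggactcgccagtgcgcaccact
The Irf2 window, chr8:46739495-46739794 on the + strand, held overlapping IRF cores at -245 and -239, a GAS at -224 and a κB match at -17.
Irf2: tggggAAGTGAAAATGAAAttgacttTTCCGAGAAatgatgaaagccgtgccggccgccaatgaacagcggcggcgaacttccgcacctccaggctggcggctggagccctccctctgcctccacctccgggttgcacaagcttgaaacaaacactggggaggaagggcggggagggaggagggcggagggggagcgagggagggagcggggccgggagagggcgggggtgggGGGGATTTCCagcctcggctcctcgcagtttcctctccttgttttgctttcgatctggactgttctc
The first Irf9 window, chr14:55603735-55604034 on the + strand, and the only Irf7 window, chr7:141266375-141266674 on the - strand, held none of the 3 motifs.
Irf9: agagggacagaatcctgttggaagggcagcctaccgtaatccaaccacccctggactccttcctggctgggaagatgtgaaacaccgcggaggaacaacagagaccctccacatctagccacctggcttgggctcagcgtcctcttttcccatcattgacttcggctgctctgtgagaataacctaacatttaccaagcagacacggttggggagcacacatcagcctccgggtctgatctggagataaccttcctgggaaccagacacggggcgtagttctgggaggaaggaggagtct
Irf7: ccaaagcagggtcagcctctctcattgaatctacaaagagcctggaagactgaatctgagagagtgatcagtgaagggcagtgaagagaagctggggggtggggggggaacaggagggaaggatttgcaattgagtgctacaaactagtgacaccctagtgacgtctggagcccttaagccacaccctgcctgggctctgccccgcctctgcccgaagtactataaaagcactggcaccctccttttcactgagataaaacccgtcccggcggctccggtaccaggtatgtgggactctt
The first Irf8 window held 2 GAS matches, at -171 and -153, and no window of Irf3, Irf4 or Irf5 held a match. Of all 32817 windows in the table, 8.29% held a GAS, 23.9% an IRF core and 8.46% a κB match. A match is a run of letters and not a measured binding site, and an empty window says nothing of sites elsewhere.

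The genes lie on 6 chromosomes of GRCm38, with 2 each on chromosomes 7 and 8, and are all protein-coding in GENCODE M21. Irf1 (ENSMUSG00000018899.16) spans chr11:53770014-53778374, Irf2 (ENSMUSG00000031627.9) chr8:46739732-46847458, Irf3 (ENSMUSG00000003184.15) chr7:44997648-45002848 and Irf4 (ENSMUSG00000021356.10) chr13:30749226-30766976. Irf5 (ENSMUSG00000029771.12) spans chr6:29526625-29541871, Irf7 (ENSMUSG00000025498.15) chr7:141262706-141266481, Irf8 (ENSMUSG00000041515.10) chr8:120736358-120756694 and Irf9 (ENSMUSG00000002325.15) chr14:55603571-55610030. Some exonic bases are shared with a neighbour, 135 for Irf1 with Gm17334, 88 for Irf3 with Bcl2l12, 411 for Irf5 with Tnpo3 and 45 for Irf7 with Phrf1, all on the opposite strand. Irf9 shares 123 exonic bases with Rnf31 on the same strand. Whether the counting used the strand of the reads is not stated, so reads in these stretches are of uncertain origin.

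The members fell into an abundant group and a scarce one, and TNF-α reordered the abundant group. By TPM, which allows levels of different genes to be compared, the order in control KD at the basal level was Irf3, Irf9, Irf2, Irf1, Irf7, Irf5, Irf8 and Irf4. Mean levels in that group ran from 40.5 ± 2.45 TPM (SD, n = 2) for Irf3 to 3.03 ± 0.0424 TPM for Irf5 and 0.485 ± 0.148 TPM for Irf8, and the ranges of Irf9 and Irf2 overlapped, so these 2 did not differ beyond their spread. In GSTM1 KD at the basal level Irf2, at 35.2 ± 7.42 TPM, and Irf3, at 33.9 ± 2.59 TPM, led with overlapping ranges, followed by Irf9 at 29.0 ± 1.58 TPM and Irf1 at 21.9 ± 0.742 TPM.

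After TNF-α stimulation Irf1 was the most abundant member in every library, at 163 ± 10.6 TPM in control KD and 179 ± 19.5 TPM in GSTM1 KD. In control KD it was followed by Irf2 and Irf9 with overlapping ranges, then Irf3, then Irf7 and Irf5 with overlapping ranges. In GSTM1 KD the ranges of Irf9, at 97.4 ± 15.7 TPM, and Irf7, at 79.9 ± 32.0 TPM, overlapped, as did those of Irf7 and Irf2, at 71.4 ± 8.75 TPM. Irf7 thus stood below Irf3 in control KD after TNF-α and above it in GSTM1 KD, with an Irf7 to Irf3 ratio of TPM of 0.744 and 0.668 in the control KD libraries and 3.34 and 1.62 in the GSTM1 KD libraries. Without stimulation that ratio was 0.251 to 0.408 in all 4 libraries.

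The summed TPM of the 8 members was 124 to 144 in the 4 basal libraries, 327 and 349 in control KD after TNF-α and 532 and 425 in GSTM1 KD after TNF-α. The stacked TPM per library show which members made up the sum. Irf1 made up 14.1 to 17.3% of it at the basal level, 47.6 and 48.9% in control KD after TNF-α and 36.3 and 38.9% in GSTM1 KD after TNF-α. Irf3 went from 24.8 to 32.7% at the basal level to 5.77 to 12% after TNF-α, while its TPM was 32.1 to 42.3 in the basal libraries and 30.7 to 39.3 in the stimulated ones. Irf9 made up 14.0 and 11.4% in control KD after TNF-α and 20.4 and 20.3% in GSTM1 KD, and Irf7 8.94 and 6.57% against 19.3 and 13.5%.

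**Figure D1:**
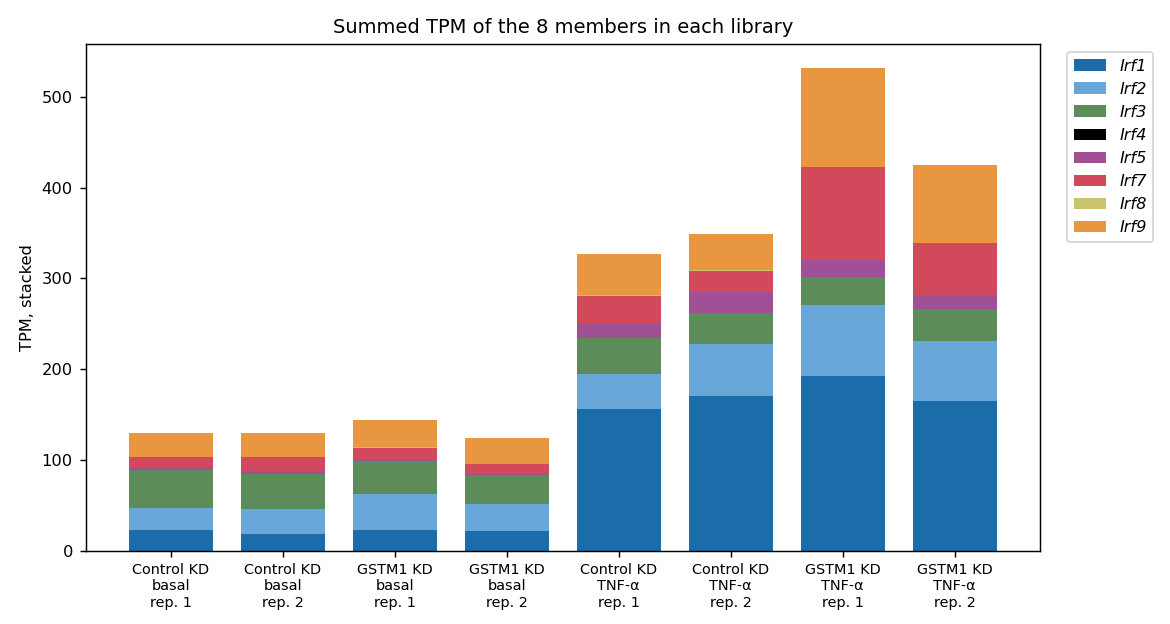
Summed TPM of the 8 members in each library, stacked by gene, with 2 libraries in each of the 4 groups along the x axis. The sum was 124 to 144 TPM in the basal libraries, 327 and 349 TPM in control KD after TNF-α and 532 and 425 TPM in GSTM1 KD after TNF-α, and Irf4 and Irf8 are too low to be seen.

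Levels within a gene are given from here on as CPM, the count scaled to the library size and its TMM factor. Irf1, the activator whose gene responds to NF-κB and to interferons, lay at 22.7 and 18.6 CPM in resting control KD astrocytes, against 21.6 and 20.1 CPM in resting GSTM1 KD astrocytes. With stimulation it lay at 169 and 189 CPM in control KD, against 211 and 177 CPM in GSTM1 KD. Every stimulated library was far above every basal one, and control KD and GSTM1 KD overlapped in both states.

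The log2 fold change of Irf1 with TNF-α was 3.11 (SE 0.144, adjusted p = 0.000239, edgeR) in control KD and 3.22 (SE 0.145, adjusted p = 0.000255) in GSTM1 KD, or 8.65-fold and 9.31-fold. The log2 fold change of GSTM1 KD against control KD was 0.01 at the basal level, with a 95% interval of -0.38 to 0.40, and 0.09 after TNF-α, with an interval of -0.23 to 0.41. The difference of the 2 responses was 0.11 (interval -0.34 to 0.55, unadjusted p = 0.597).

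Irf2, the factor that shares the sites of IRF1, lay at 29.8 and 34.3 CPM in resting control KD astrocytes, against 36.9 and 37.4 CPM in resting GSTM1 KD astrocytes. With stimulation it lay at 45.8 and 61.2 CPM in control KD, against 93.9 and 79.1 CPM in GSTM1 KD. In each state both GSTM1 KD libraries were above both control KD libraries, by little at the basal level and by more after TNF-α.

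The log2 fold change of Irf2 in GSTM1 KD against control KD was 0.21 (SE 0.125, adjusted p = 0.295) at the basal level and 0.67 (SE 0.167, adjusted p = 0.0498) after TNF-α, just inside the threshold of 0.05. With TNF-α it was 0.74 (SE 0.158, adjusted p = 0.0651) in control KD and 1.22 (SE 0.159, adjusted p = 0.00922) in GSTM1 KD, and the difference of the 2 was 0.48 (interval -0.04 to 1.00, unadjusted p = 0.0658). The effective length of Irf2, an RSEM estimate averaged over its transcripts and shortened for the length of the fragments, ran from 1637 to 2224 bases over the libraries. With these lengths in the model the knockdown difference after TNF-α had an adjusted p of 0.135, and without GSTM1 KD replicate 1 or replicate 2 it had 0.222 and 0.157, within a range of 2.2e-05 to 0.222 over all alternatives. The response of Irf2 in GSTM1 KD lost its call under 5 of 18 alternatives, with effective lengths in the model (adjusted p = 0.0547), in limma on TPM (0.0647), and without basal replicate 1 (0.111), basal replicate 2 (0.107) or stimulated replicate 1 (0.0732) of that group. Its response in control KD gained a call under 5 of 18 alternatives, among them DESeq2 (0.00329) and scaling by library size alone (0.0487), with adjusted p of 2.1e-05 to 0.276 over all of them. The TPM ratio of Irf1 to Irf2 was 0.553 to 0.913 in the basal libraries, 3.93 and 2.99 in control KD after TNF-α and 2.49 and 2.53 in GSTM1 KD after TNF-α.

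Irf3, present in resting cells and controlled mainly by phosphorylation, lay at 26.9 and 24.6 CPM in resting control KD astrocytes, against 21.1 and 18.5 CPM in resting GSTM1 KD astrocytes. With stimulation it lay at 27.2 and 22.7 CPM in control KD, against 21.1 and 21.1 CPM in GSTM1 KD. The GSTM1 KD libraries were the lower ones in both states, and the stimulated and basal libraries overlapped in control KD. The log2 fold change with the knockdown was -0.38 (SE 0.142, adjusted p = 0.136) at the basal level and -0.27 (SE 0.146, adjusted p = 0.236) after TNF-α, and neither passed the threshold. The change with TNF-α was -0.04 (adjusted p = 0.981) in control KD and 0.09 (adjusted p = 1.00) in GSTM1 KD.

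Irf7, the interferon-inducible partner of IRF3 in type I interferon transcription, lay at 10.1 and 14.0 CPM in resting control KD astrocytes, against 12 and 9.61 CPM in resting GSTM1 KD astrocytes. With stimulation it lay at 27.5 and 23.1 CPM in control KD, against 98.7 and 51.5 CPM in GSTM1 KD. The basal groups overlapped, and after TNF-α both GSTM1 KD libraries stood above both control KD libraries but also far from each other.

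The log2 fold change of Irf7 in GSTM1 KD against control KD was 1.54 (SE 0.317, adjusted p = 0.0337) after TNF-α, or 2.92-fold, and -0.15 (interval -0.73 to 0.43, adjusted p = 0.694) at the basal level. With TNF-α it was 1.08 (SE 0.318, adjusted p = 0.175) in control KD and 2.80 (SE 0.332, adjusted p = 0.00604) in GSTM1 KD, or 6.94-fold. The difference of the 2 responses was 1.72 (interval 0.66 to 2.77), with an unadjusted p of 0.00620 and an adjusted p of 1.00. Without GSTM1 KD replicate 1, the highest library, the knockdown difference after TNF-α was 1.01 (adjusted p = 0.0839), and without replicate 2 it was 1.94 (adjusted p = 0.0415), within a range of 7.7e-23 to 0.0839 over all alternatives. The TNF-α response in GSTM1 KD had an adjusted p of 0.0786 and 0.0964 without basal replicate 1 or 2 of that group, and the response in control KD gained a call in DESeq2 (0.0165) and without a filter on low counts (9.6e-09).

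Irf9, the DNA-binding subunit of ISGF3, lay at 32.3 and 34.9 CPM in resting control KD astrocytes, against 37.1 and 34.4 CPM in resting GSTM1 KD astrocytes. With stimulation it lay at 59.3 and 52.7 CPM in control KD, against 136 and 104 CPM in GSTM1 KD. The basal groups overlapped, and the stimulated GSTM1 KD libraries were well above the stimulated control KD libraries.

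The log2 fold change of Irf9 in GSTM1 KD against control KD was 1.07 (SE 0.158, adjusted p = 0.0178) after TNF-α, or 2.10-fold, and 0.09 (interval -0.20 to 0.39, adjusted p = 0.635) at the basal level. With TNF-α it was 0.74 (SE 0.139, adjusted p = 0.0434) in control KD, or 1.67-fold, and 1.74 (SE 0.142, adjusted p = 0.00162) in GSTM1 KD, or 3.35-fold. The difference of the 2 responses was 1.01 (interval 0.54 to 1.47), with an unadjusted p of 0.00124 and an adjusted p of 1.00 in edgeR and 0.0346 in DESeq2, and the adjusted p was 5.0e-05 to 1.00 over all alternatives. The knockdown difference after TNF-α was 0.88 (adjusted p = 0.0812) without GSTM1 KD replicate 1 and 1.25 (adjusted p = 0.0522) without GSTM1 KD replicate 2, within a range of 5.5e-13 to 0.0812. The response in control KD lost its call under 9 of 18 alternatives. These were scaling by library size alone (adjusted p = 0.0544), limma on TPM (0.0550), a fit on the 4 control KD libraries (0.138) and leaving out any of 6 of the 8 libraries, the 4 of control KD and the 2 basal ones of GSTM1 KD, with adjusted p of 0.0986 to 0.175.

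**Figure D2:**
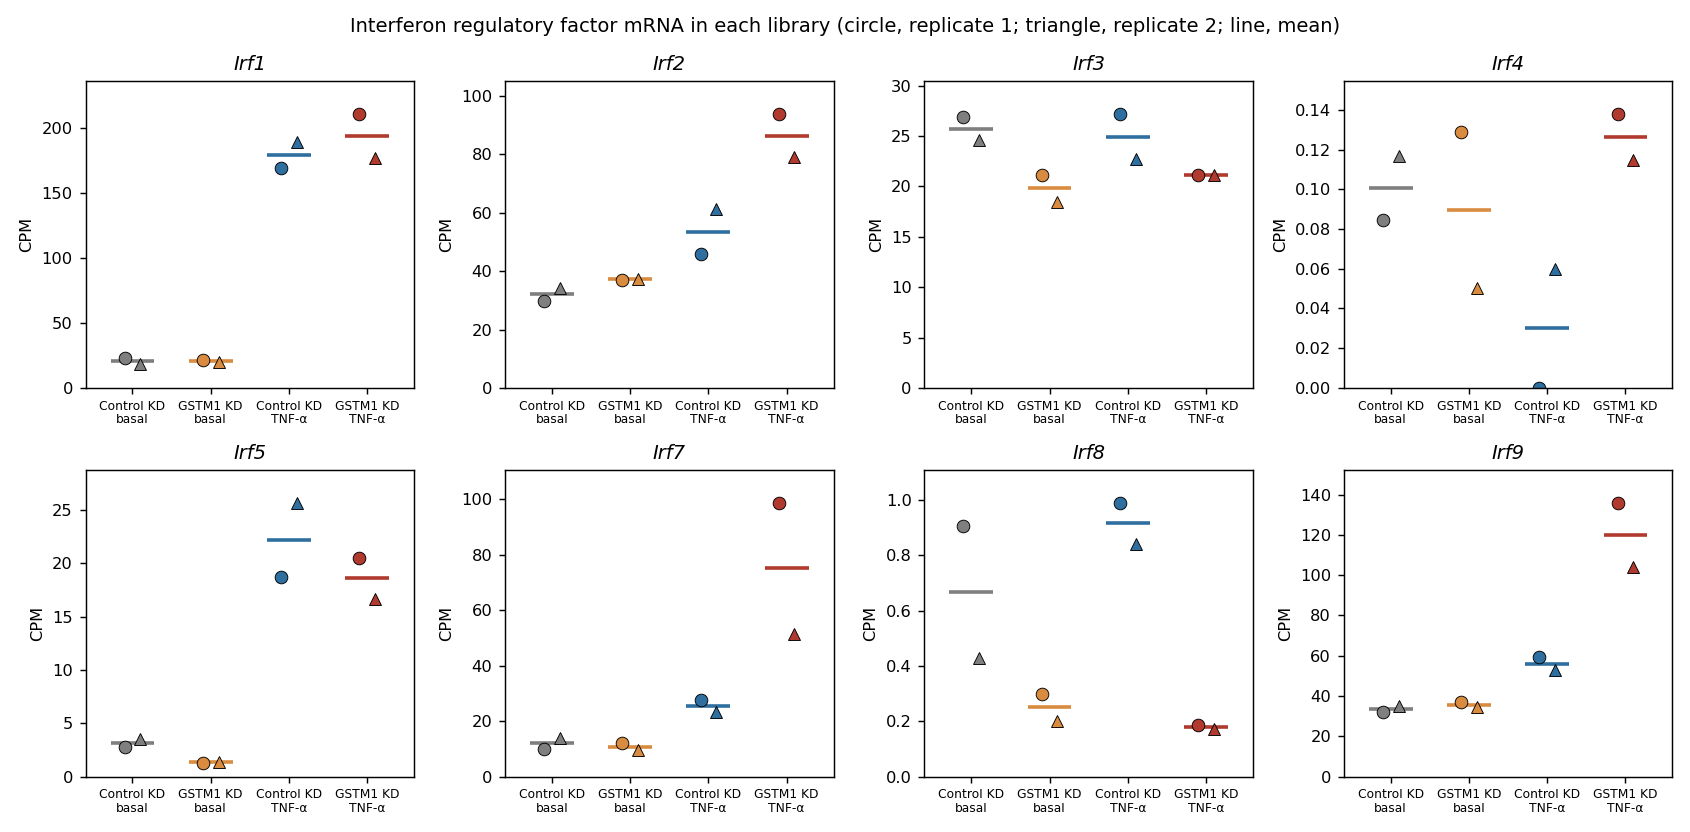
CPM of each member (y axis, from 0, on a scale of its own) in the 4 groups (x axis), with a circle for replicate 1, a triangle for replicate 2 and a line at the mean. After TNF-α, Irf7 was at 98.7 and 51.5 CPM and Irf9 at 136 and 104 CPM in GSTM1 KD, above 27.5 and 23.1 CPM and 59.3 and 52.7 CPM in control KD, while Irf1 overlapped between control KD and GSTM1 KD.

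Irf5, which acts downstream of MyD88 and is best known in myeloid cells, lay at 2.80 and 3.48 CPM in resting control KD astrocytes, against 1.29 and 1.40 CPM in resting GSTM1 KD astrocytes. With stimulation it lay at 18.7 and 25.7 CPM in control KD, against 20.5 and 16.7 CPM in GSTM1 KD. The basal GSTM1 KD libraries were below the basal control KD libraries, whereas the stimulated groups overlapped.

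Irf5 rose with TNF-α by a log2 fold change of 2.82 (SE 0.223, adjusted p = 0.00165) in control KD and 3.79 (SE 0.248, adjusted p = 0.000859) in GSTM1 KD, or 7.09-fold and 13.8-fold. In GSTM1 KD against control KD it was -1.22 (SE 0.303, adjusted p = 0.0615) at the basal level, outside the threshold, and -0.27 (interval -0.78 to 0.23, adjusted p = 0.378) after TNF-α. The basal difference was inside the threshold under 6 of 14 alternatives, among them limma on TPM and the replicate number as a block. Without control KD replicate 1 it was -1.37. Over all alternatives its adjusted p ran from 0.00705 to 0.345. The difference of the 2 responses was 0.96 (interval 0.20 to 1.73), with an unadjusted p of 0.0203 and an adjusted p of 1.00.

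Irf8, a factor of the myeloid lineage, had counts of 32 and 11 in resting control KD astrocytes, against 7 and 4 in resting GSTM1 KD astrocytes. With stimulation the counts were 23 and 14 in control KD, against 4 and 3 in GSTM1 KD. Irf8 was thus close to the floor in the GSTM1 KD libraries, which were the lower ones in both states. The summed counts per depth were 2.78 times as high in control KD at the basal level (exact 95% interval 1.41 to 5.97) and 5.18 times after TNF-α (2.28 to 13.8), intervals that cover counting error only.

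In both states Irf8 passed the filter on low counts through the control KD libraries alone, so it could enter the knockdown tests only by being higher there, and its values are given as a description. Its log2 fold change was -1.41 (SE 0.575, adjusted p = 0.161) at the basal level and -2.35 (SE 0.465, adjusted p = 0.0309) after TNF-α. The call after TNF-α did not hold with effective lengths in the model (adjusted p = 0.0646), in limma on TPM (0.0856), or without any 1 of 3 libraries, with 0.0880 without control KD replicate 1, 0.204 without GSTM1 KD replicate 1 and 0.250 without GSTM1 KD replicate 2, in a range of 0.00551 to 0.250. With TNF-α the log2 fold change was 0.43 (interval -0.59 to 1.46) in control KD and -0.49 (SE 0.638) in GSTM1 KD, neither past the threshold. Irf4, a factor of lymphocytes, had 0 to 3 counts in each library and entered no test.

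Since IRF5 and IRF8 are best known in myeloid cells, the microglia and macrophage markers were set beside them. The summed TPM of the 15 markers was 24.2 and 7.66 in resting control KD, against 8.04 and 4.28 in resting GSTM1 KD. With stimulation it was 24.5 and 5.73, against 10.3 and 4.60. Replicate 1 of control KD was high in both states, and the other control KD libraries lay within the range of GSTM1 KD. Itgam, which encodes CD11b, had counts of 61 and 8 in resting control KD, against 3 and 0 in resting GSTM1 KD, and of 35 and 6 against 8 and 1 with stimulation. In GSTM1 KD against control KD, 0 of 7 markers tested passed at the basal level (edgeR; 0 at an unadjusted p under 0.05; median log2 fold change -0.94) and 0 of 5 after TNF-α (0 at an unadjusted p under 0.05; median -0.73), where 4.60% of all genes were called higher and 5.62% lower at rest and 7.26% and 8.92% with stimulation, so that counts of 0 among so few say little. The part of such cells in the lower Irf8 and basal Irf5 was not tested.

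Before and after TNF-α the markers had a summed TPM of 4.28 to 24.2 and of 4.60 to 24.5, and 0 of 11 tested passed in either kind of cell (0 at an unadjusted p under 0.05), where in control KD 2.10% of all genes rose and 0.528% fell, against 2.35% and 0.294% in GSTM1 KD. Their median log2 fold changes were -0.10 and 0.34. The part of such cells in the rise of Irf5 was not tested. The plot of Irf5 and Irf8 against the summed markers gives every library. Spi1, which encodes PU.1, the partner of IRF4 and IRF8 on DNA, had 0 to 14 counts.

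**Figure D3:**
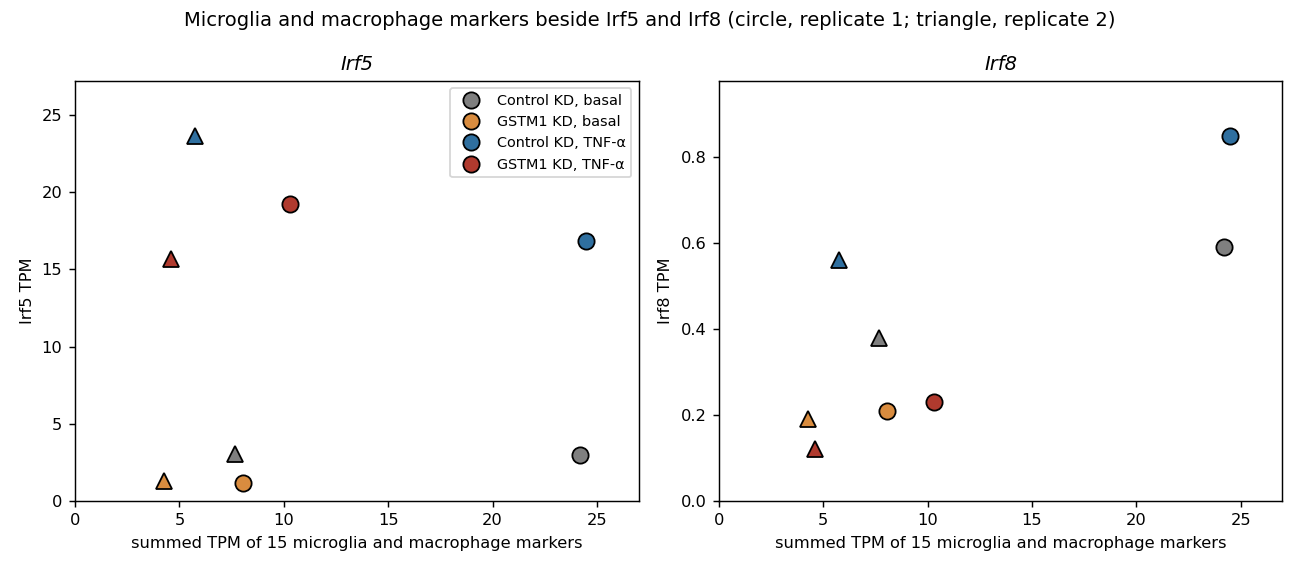
TPM of Irf5 and of Irf8 (y axes) against the summed TPM of 15 microglia and macrophage markers (x axis) in the 8 libraries, coloured by group, with circles for replicate 1 and triangles for replicate 2. Irf5 was at 15.7 to 23.7 TPM after TNF-α at marker sums of 4.60 to 24.5 TPM. Irf8 was at 0.590 and 0.850 TPM in the 2 libraries with the highest marker sums, 24.2 and 24.5 TPM. It was at 0.560 TPM at a sum of 5.73 TPM in stimulated control KD replicate 2, and at 0.230 TPM at 10.3 TPM in stimulated GSTM1 KD replicate 1.

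Counted together, 7 of the 8 members could be tested. In GSTM1 KD against control KD at the basal level 0 of 7 passed in edgeR, where 4.60% of all genes tested were called higher and 5.62% lower. At an unadjusted p under 0.05 there were 2, Irf3 and Irf5, both lower, while 2283 of all 14899 genes tested were higher and 2429 lower at that level, so this count is no result about the members. DESeq2 called 0 members, while limma on TPM and edgeR with the replicate number as a block each called 1, Irf5. After TNF-α 3 of 7 were higher in GSTM1 KD (Irf2, Irf7 and Irf9), where 7.26% of all genes tested were called higher and 8.92% lower. Irf8 also met the threshold, as the lower one, and is not read against these shares because of the filter. Leaving out a library leaves 1 arm of these comparisons with 1 library, which is then assumed to vary like the other group, so a call lost in this way rests on that group's spread alone. Without GSTM1 KD replicate 1 no gene of 14822 passed, members included, and without GSTM1 KD replicate 2 only Irf7 did among the members, with 94 genes in all. With the effective lengths in the model, or in limma on TPM, Irf7 and Irf9 were the 2 members that passed.

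With TNF-α 3 of 7 members rose in control KD (Irf1, Irf5 and Irf9) and 0 fell, where 2.10% of all genes tested rose and 0.528% fell. In GSTM1 KD 5 rose (Irf1, Irf2, Irf5, Irf7 and Irf9) and 0 fell, where 2.35% of all genes rose and 0.294% fell. When the 2 responses were set against each other as an interaction term, 0 of 7 members and 0% of all genes passed in edgeR. At an unadjusted p under 0.05 there were 3 members, Irf5, Irf7 and Irf9, each with the larger response in GSTM1 KD, among 198 genes with a positive and 97 with a negative difference at that level. DESeq2 called 1 member for this difference, Irf9, and 27 genes in all, and limma on TPM called 0. The comparisons of the knockdown and of the stimulation share libraries, so their calls are not independent of each other.

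**Figure D4:**
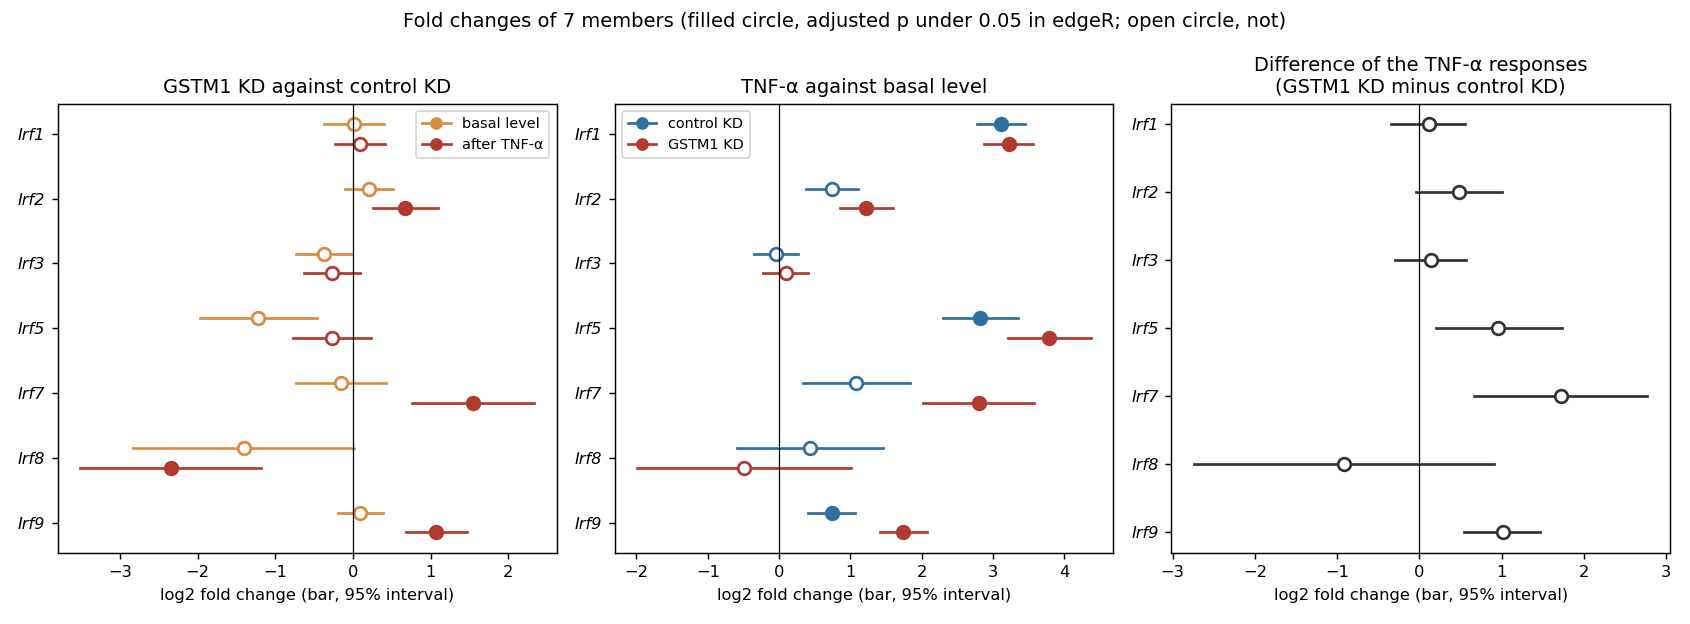
Log2 fold changes (x axes) of the 7 members tested, with 95% intervals, of GSTM1 KD against control KD in each state, for TNF-α against the basal level in each kind of cell, and for the difference of the responses. Filled circles had an adjusted p under 0.05 in edgeR. After TNF-α, Irf7 at 1.54, Irf9 at 1.07 and Irf2 at 0.67 lay above 0 and Irf8, which entered both knockdown tests through control KD alone, at -2.35 below, and no member was filled at the basal level or for the difference.

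The genes that work with these factors were examined as 6 lists, and the counts are descriptions of lists chosen with earlier results known. Of 27 interferon-stimulated targets, genes with response elements read by ISGF3 and IRF family members, 15 were higher and 0 lower in stimulated GSTM1 KD than in stimulated control KD astrocytes, with a median log2 fold change of 1.36 beside -0.01 over all genes tested, of which 7.26% were called higher and 8.92% lower. Oas2 and Sp100, neither of them called, passed the filter through GSTM1 KD alone, and the median of the other 25 was 1.31. Examples were Lgals3bp, a secreted binding protein, at 0.90 (adjusted p = 0.0124), Rtp4, a chaperone-like interferon-inducible protein, at 1.38 (0.0245), Cmpk2, a nucleotide kinase of mitochondria, at 2.28 (0.0250) and Rsad2, which encodes the antiviral enzyme viperin, at 2.30 (0.0252). In resting cells 0 of 23 were higher and 2 lower, Ifit1 at -0.89 (adjusted p = 0.0385) and Cxcl10 at -1.45 (0.0476), with a median of -0.15 (-0.13 over 22 genes without Ccl5, which passed the filter through control KD alone), beside 4.60% higher and 5.62% lower over all genes. Both basal calls were lost without either basal GSTM1 KD replicate, when only 1 and 3 of all genes passed. Without GSTM1 KD replicate 1 the count after TNF-α was 0, and without replicate 2 it was 14.

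With TNF-α 14 of the 27 targets rose in control KD (median 1.73) and 24 in GSTM1 KD (median 3.40). Of all genes 2.10% and 2.35% rose, and 0 of the targets fell in either. Mx1, Oas2, Zbp1 and Sp100 were too low in resting cells to enter the basal comparison. They could pass the filter here only with stimulated libraries, so any rise of theirs is a description, and the medians include them. Cxcl10, a chemokine for T cells, rose by 6.41 on the log2 scale in control KD astrocytes and by 8.35 in GSTM1 KD astrocytes. With stimulation its difference between the knockdowns was 0.46 (adjusted p = 0.179). Ccl5, another chemokine, rose by 5.41 and 6.21 from few counts, 26 and 12 in resting control KD against 7 and 3 in resting GSTM1 KD. With stimulation Ccl5 lay at 22.6 and 30.5 CPM in control KD, against 19.8 and 15.2 CPM in GSTM1 KD (log2 fold change -0.62, adjusted p = 0.0973), so its GSTM1 KD libraries were the lower ones in both states. The difference of the responses was positive for 27 of 27 targets, beside 8384 positive and 6948 negative of all 15332 genes. Its median was 1.47 beside 0.02 over all genes. At an unadjusted p under 0.05 in edgeR there were 21 targets, beside 198 positive and 97 negative among all genes. After adjustment 0 passed. Mx1, Oas2, Zbp1 and Sp100 are counted here too, with the limit given above.

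Of the 17 known IRF1 targets, among them genes of antigen processing, 3 were higher and 0 lower in stimulated GSTM1 KD astrocytes, beside 7.26% and 8.92% of all genes. The 3 were Gbp3, a guanylate-binding GTPase, at 1.10 (adjusted p = 0.0335), Il15, a cytokine, at 1.30 (0.0420), and Tap1, a peptide transporter, at 0.82 (0.0456), and the median of the list was 0.61. That count fell without either GSTM1 KD replicate and rose without control KD replicate 2. The count over all genes also moved widely when a library was left out, so these moves are no result about the list. In resting cells 0 of 16 passed in edgeR, beside 4.60% of all genes called higher and 5.62% lower, and the median was 0.04. At an unadjusted p under 0.05 there were 3, while 2283 of all 14899 genes tested were higher and 2429 lower at that level. These counts are thus no result about the list. With TNF-α 10 of 17 rose in control KD and 16 in GSTM1 KD, beside 2.10% and 2.35% of all genes, with medians of 1.38 and 2.09. Among those that rose were Vcam1, an adhesion molecule, at 2.93 and 2.66 and Cd274, which encodes PD-L1, at 3.28 and 4.57. Nos2 is among the 17 but was too low in resting cells to enter the basal comparison. It could pass the filter here only with stimulated libraries, so any rise of it is a description.

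Upstream of the factors, 4 of 16 sensors, adaptors and kinases tested were higher in GSTM1 KD after TNF-α and 1 was lower, with a median of -0.00 (0.06 without Tmem173), beside 7.26% higher and 8.92% lower over all genes. Without GSTM1 KD replicate 1 there were 0, and without replicate 2 there were 3 higher and 0 lower. The 4 were Traf3, an adaptor to TBK1, at 1.07 (adjusted p = 0.0116), Ddx58, which encodes the RNA sensor RIG-I, at 1.35 (0.0170), Ifih1, which encodes MDA5, at 1.26 (0.0272), and Tlr3, a receptor for double-stranded RNA, at 1.06 (0.0400). The lower one was Tmem173, which encodes the adaptor STING, at -1.88 (adjusted p = 0.0413), which like Irf8 passed the filter through control KD alone, so its call is a description. Traf3 was also the 1 gene of 16 that was higher at the basal level, at 1.24 (adjusted p = 0.0192), where 4.60% of all genes were called higher. Tbk1 and Ikbke, the kinases of IRF3 and IRF7, did not pass in this comparison, at 0.13 (interval -0.24 to 0.49) and -0.38 (interval -0.97 to 0.21). With TNF-α Myd88, the adaptor upstream of IRF5, rose by 0.96 (adjusted p = 0.0187) in control KD astrocytes and by 1.48 (0.00333) in GSTM1 KD astrocytes.

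Of the 10 interferon signalling genes, 2 were higher and 2 lower in stimulated GSTM1 KD astrocytes, with a median of -0.01 (-0.14 without Ifnb1), beside 7.26% higher and 8.92% lower over all genes. Without GSTM1 KD replicate 1 there were 0, and without replicate 2 there were 2 higher and 0 lower. Among the higher ones was Stat2, whose product binds IRF9, at 1.22 (SE 0.276, adjusted p = 0.0413), beside 1.07 for Irf9. The receptor chain gene Ifnar1, at -0.49 (adjusted p = 0.0265), and the kinase gene Jak2, at -0.44 (0.0385), were lower. Ifnb1, which encodes interferon-β, had 0 counts in the 4 basal libraries, 7 and 1 counts in control KD after TNF-α and 25 and 9 counts in GSTM1 KD after TNF-α, and it passed the filter on low counts through stimulated GSTM1 KD alone, so no test of it is given. Of 9 genes tested in resting cells 1 was lower, Ifngr2, a chain of the interferon-γ receptor, at -0.76 (adjusted p = 0.0290), where 5.62% of all genes were called lower.

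Of the 6 binding partners and cofactors tested, 1 was lower in GSTM1 KD after TNF-α, Ep300, a histone acetyltransferase, at -0.54 (adjusted p = 0.0335), beside 8.92% of all genes called lower. At the basal level 0 passed (edgeR; 1 at an unadjusted p under 0.05), beside 4.60% of all genes called higher and 5.62% lower. Of the 8 genes known to rise with TNF, 0 were higher and 4 lower in the knockdown in each state, beside 5.62% and 8.92% of all genes called lower, with medians of -0.89 at rest and -0.57 with stimulation. They included Icam1, an adhesion molecule, at -1.16 and -1.22 and Birc3, an inhibitor of apoptosis, at -1.64 and -1.01, and in both kinds of cell 7 of the 8 rose with TNF-α, beside 2.10% and 2.35% of all genes. Without either GSTM1 KD replicate, 0 of the 8 passed in the knockdown comparison of either state.

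**Figure D5:**
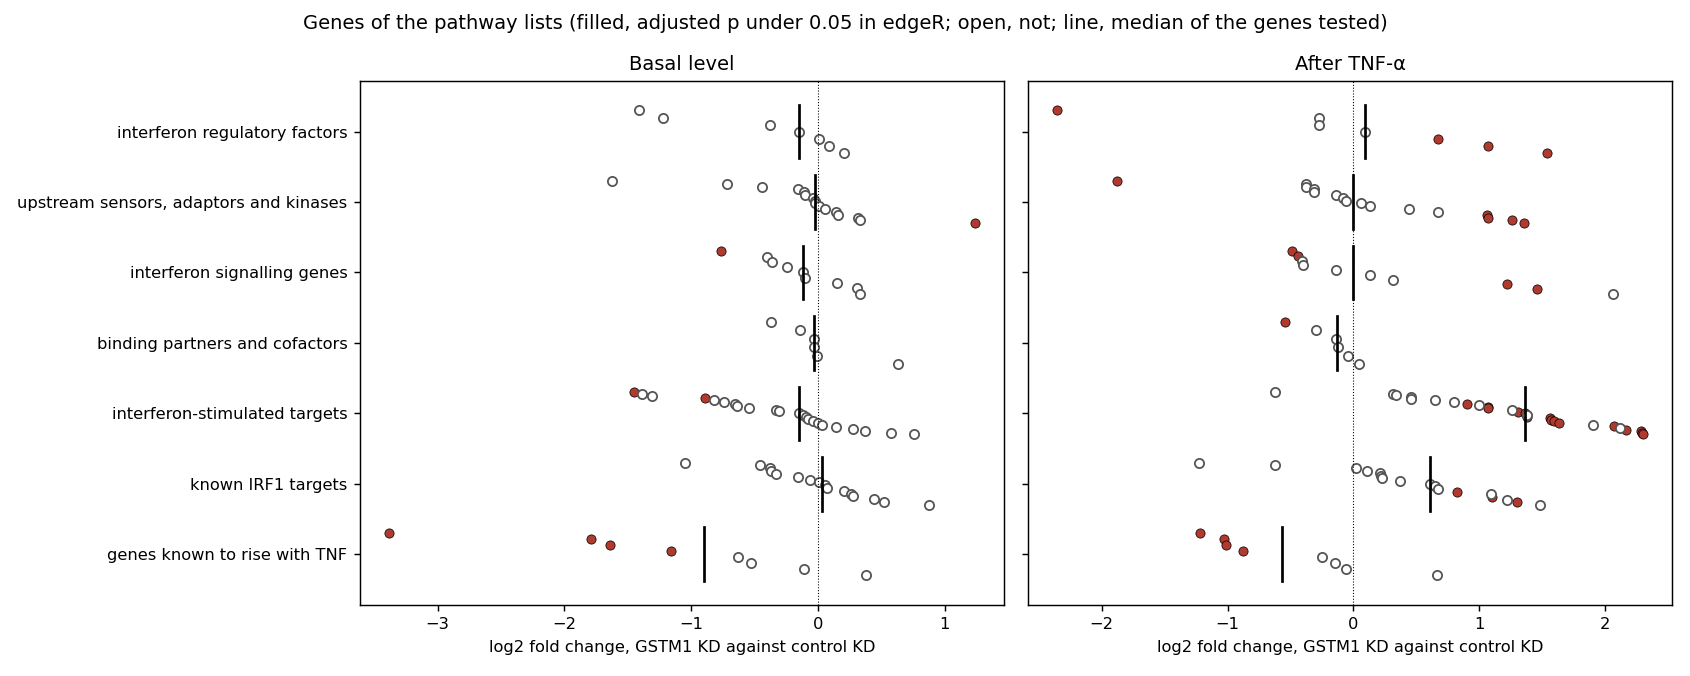
Log2 fold change of GSTM1 KD against control KD (x axis) in resting and in stimulated astrocytes for each gene tested of the family and of 6 lists (y axis), filled where the adjusted p in edgeR was under 0.05, with a line at the median. After TNF-α the median was 1.36 for the interferon-stimulated targets, 0.61 for the known IRF1 targets and -0.57 for the genes known to rise with TNF, and at the basal level it was -0.15 (-0.13 without Ccl5, which was tested through control KD alone), 0.04 and -0.89.

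Across the 8 libraries the members formed patterns that are given as descriptions, since the points share groups and replicates. The log2 CPM of Irf7 and Irf9 had a Pearson r of 0.99, that of Irf2 and Irf9 0.96, and that of Irf1 and Irf5 0.96, whereas Irf1 and Irf3 had 0.06. The genes whose log2 CPM was most like that of Irf1 among 15332 were Nfkbie, Nfkb2 and Rfx5, with r of 0.997, 0.993 and 0.992. Nfkbie and Nfkb2 encode an inhibitor and a subunit of NF-κB, and Rfx5 a regulator of MHC class II genes. For Irf7 they were Phf11c, Isg20 and Trim30d (0.996, 0.995 and 0.994), and for Irf9 Phf11c, Apol9a and Isg20 (0.994, 0.991 and 0.991), so Phf11c and Isg20, which encodes an interferon-inducible exonuclease, stood in both. For Irf2 they were Casp1, Tgtp2 and Cmpk2 (0.994, 0.993 and 0.992), for Irf5 Casp4, Junb and RP23-52N2.1 (0.995, 0.994 and 0.993), and for Irf8, at few counts, Ykt6, Mien1 and Ing5 (0.993, 0.991 and 0.988).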

How the data were processed

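RNA-seq libraries were prepared by the authors with a directional kit from total RNA of 8 astrocyte samples, and reads were processed with STAR version 2.5.4b and RSEM version 1.3.0 on GRCm38, per the labels' processing notes. The deposited expected counts are RSEM estimates per gene, not normalized. Of them 7.58 to 9.56% were not whole, because reads that fit several genes are divided between them. The deposited TPM values, scaled by the authors for length and depth, were used for levels between genes and in limma, and the deposited effective lengths only in 1 alternative. Samples were grouped by their labels.

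Expected counts were rounded. edgeR version 4.0.16 (R version 4.3.3) gave TMM factors of 0.958 to 1.03, the filterByExpr filter and the quasi-likelihood F-test over 14593 to 15332 genes, with Benjamini-Hochberg adjustment at 0.05. The knockdowns were compared on the 4 libraries of each state, and the TNF-α responses and their difference on all 8. With 2 libraries per group no exact permutation test can reach 0.05. All members were named, with at most 4 genes per list and comparison (smallest p among those past the threshold whose groups did not overlap), and the 3 genes most like each called member. Tbk1, Ikbke, Tmem173, Ifnb1, Oas2, Sp100, Mx1, Zbp1, Nos2, Itgam, P2ry12, Aif1 and Spi1 were named outside this rule, with their values known. The markers Aldoc, Gfap, Aldh1l1, C1qa, Ctss, Map2, Tubb3, Syt1, Rbfox3 and Snap25 were also named outside it. So were repeats of a named gene in a second comparison. Members and lists were chosen with earlier results of these data known. Alternatives were DESeq2 version 1.42.0, DESeq2 scaling within edgeR, scaling by library size without TMM, the whole table unfiltered, a stricter filter of 10 counts in each library, the replicate number as a block, the newer quasi-likelihood method, effective lengths as offsets, limma version 3.58.1 on log2(TPM + 0.5), other sets of libraries and leaving out each library, and their use on the list counts was added after seeing the data. Procedures were tested on simulated data. Promoters came from RefSeq (GRCm38.p6), positions from GENCODE M21, whose versioned identifiers are those of the files. Sequences were read with Python version 3.11.15 and figures drawn with matplotlib version 3.10.9. Some single genes of the lists are not reported here.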

Additional observations from a re-analysis of the deposited data

How the results depend on the processing

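Of 558 log2 fold changes of members under the alternatives, 502 kept their direction and side of the threshold, 28 lost the call, 16 gained it and 12 changed sign, none of them past the threshold before or after. Those 12 were fold changes near 0. With the knockdown at the basal level Irf1, at 0.01, was -0.02 without a filter and -0.13 to 0.16 when a library was left out, and Irf7, at -0.15, was -0.37 to 0.10. With the knockdown after TNF-α Irf1, at 0.09, was -0.04 to 0.21. With TNF-α Irf3 was -0.19 to 0.10 in control KD when a library was left out, and in GSTM1 KD it was -0.00 with effective lengths as offsets and -0.04 in limma. For the difference of the responses Irf1 was -0.05 to 0.23 and Irf3 -0.00 to 0.28 when a library was left out. At the basal level the count of members called in GSTM1 KD against control KD went from 0 to 1 (Irf5) without a filter, with at least 10 counts in every library, in limma, with all 8 libraries in the fit and with the replicate block, and was 0 to 1 when a library was left out. After TNF-α it went from 4, counting Irf8, to 2 with effective lengths as offsets and to 2 in limma. Irf8 had passed the filter through control KD alone, and without it the count went from 3 to 2 in each (Irf2 lost). The count also fell when some libraries were left out. DESeq2 gave Irf8 no adjusted p there. The count with TNF-α in control KD went from 3 to 5 in DESeq2 and to 5 without a filter (Irf2 and Irf7 added), and was 2 to 3 when a library was left out. In GSTM1 KD it went from 5 to 4 with effective lengths as offsets and to 4 in limma (Irf2 lost), and was 3 to 5 when a library was left out, with 3 without either basal GSTM1 KD replicate. The count for the difference of the responses went from 0 to 1 in DESeq2 and to 2 without a filter (Irf7 and Irf9), and was 0 when any library was left out. A knockdown comparison without 1 library has an arm of 1, assumed to vary like the other group. Which feature of each setting moved a call was not tested.

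Counts over all genes moved more. At the basal level 1524 genes passed, against 2522 in DESeq2, 3957 without a filter, 2762 with all 8 libraries and 1 to 5256 when a library was left out. After TNF-α 2360 passed, against 4540 without a filter and 0 to 5028. In limma 876 genes were higher and 703 lower after TNF-α, against 1059 and 1301 in edgeR. With TNF-α 403 genes passed in control KD and 406 in GSTM1 KD, against 761 and 647 in DESeq2, 1255 and 1050 without a filter, 72 and 691 on the 4 libraries of each kind, and 180 to 313 and 74 to 444 when a library was left out. Same-numbered replicates deviated together, with a correlation of 0.15 to 0.54 over 15332 genes in the 6 pairs of groups, but the labels do not say what a number marks. With the replicate block 4712, 4302, 988 and 808 genes passed in these 4 comparisons. Members numbered 1, 4 (counting Irf8), 4 and 5. With 2 libraries per group, the knockdown difference of Irf3 in resting cells was -0.38 (interval -0.74 to -0.03, unadjusted p = 0.0382, edgeR). It did not pass after adjustment (adjusted p = 0.136). With stimulation the difference of Irf3 was -0.27, and its interval of -0.63 to 0.09 covered both signs. Irf4 and Irf8 were limited by their counts.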
